A study of Mus musculus with 3 samples.

Results

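The BTB zinc finger genes encode transcription factors that join a BTB domain, through which the proteins pair and recruit corepressors, to zinc fingers that bind DNA. They were chosen by name: every gene labelled protein-coding whose symbol is Zbtb followed by a digit, and Bcl6 or Bcl6b. This gave 37 genes among 12541 protein-coding genes with at least 1 listed crosslink position, and 1109 of 462392 listed positions. The gene annotation GENCODE vM21 holds 43 symbols that meet the same rule. The 6 without a listed position were Bcl6b, Zbtb11, Zbtb3, Zbtb32, Zbtb42 and Zbtb8b. Zbtb8os meets the rule only by its name, which records its place beside the Zbtb8 genes. It encodes archease, a cofactor of the tRNA ligase, and no BTB zinc finger protein. It was kept as a member, and values include it unless stated.

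ZFP36L1 binds AU-rich elements, stretches of A and U in the 3′ untranslated regions (3′ UTRs) of mRNAs, and recruits the enzymes that shorten the poly(A) tail. Several BTB zinc finger proteins direct lymphocyte fate. Zbtb7b (ThPOK) sets the CD4 helper lineage in the thymus, Zbtb16 (PLZF) the innate-like T cells, and Bcl6 the follicular helper T cells and germinal centre B cells.

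The study set out to map RNA bound by ZFP36L1 by individual-nucleotide resolution crosslinking and immunoprecipitation (iCLIP), in which reverse transcription stops at the crosslinked base and so marks where the protein touched RNA. Total naive thymocytes from the thymus of C57BL/6JBabr mice were irradiated with ultraviolet light at 300 mJ/cm2, and complexes were recovered with an antibody to Brf1/2, other names of ZFP36L1 and ZFP36L2, so crosslinks to these proteins cannot be told apart here. There were 2 WT libraries from independent experiments and 1 library of DCKO cells, which lack Zfp36l1 and Zfp36l2 by conditional knockout. The labels do not name the promoter that drives the Cre. The authors' processed data are a single list of positions without a library column, so WT was not compared with DCKO and replicate error is unknown throughout.

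Each position carries a count, taken here as the number of crosslink events, and the label of a segment: 3′ UTR, coding, 5′ UTR or intron. A site is a position to which the authors gave a false discovery rate (FDR) below 0.05. Over the whole list the counts sum to 814493 and there are 141986 sites. Markers of thymocytes were present: of 12 markers 11 were listed, and 9 had a 3′ UTR site, beside 17.7% of all protein-coding genes. Total counts of the 11 ran from 31 to 3281. Ptcra was not listed, and Cd3d and Cd3g had 2 and 0 3′ UTR counts and no 3′ UTR site. Totals ran from 1 to 14 for 5 listed B cell markers, from 2 to 16 for 3 myeloid markers, from 1 to 6 for 5 thymic epithelial markers and from 2 to 5 for 2 erythroid markers. Of these 4 marker lists of other cells, 1 gene had a 3′ UTR site, the epithelial gene Epcam.

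The sequences under the members' 3′ UTR sites fell into a few kinds. The first group, shown because it holds the hexamer TATTTA that is the core of the AU-rich element, came from Zbtb6, Zbtb18, Zbtb7a, Zbtb44 and Zbtb26. Each sequence is 30 bases of the RefSeq GRCm38.p6 assembly, read 5′ to 3′ on the strand of the gene and written as DNA. The crosslinked base is at position 10. Capitals mark TATTTA. In Zbtb26 the crosslinked base lies in a run of at least 6 T, left in lower case, and TATTTA starts downstream of that run. The 2 sites of this Zbtb26 cluster had a T run as well as TATTTA within 20 nt.
Zbtb6, chr2:37425993-37426022, minus strand: ataatgtggttgtTATTTAtatTATTTAtt
Zbtb18, chr1:177449531-177449560, plus strand: taaaatTATTTAatttccttagaaaaatag
Zbtb7a, chr10:81151731-81151760, plus strand: tttaaaaagtTATTTAagctgaggaaacgg
Zbtb44, chr9:31074539-31074568, plus strand: tttaaTATTTAaatatatatatatatttgt
Zbtb26, chr2:37432420-37432449, minus strand: tttgttttttttaaaattactgtTATTTAt

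The second group is shown because T runs and a TG repeat lay under other clusters. It came from Zbtb1, Zbtb21, Zbtb6 and Zbtb7a. Capitals mark runs of at least 6 T, or the TG repeat in the last sequence.
Zbtb1, chr12:76387853-76387882, plus strand: TTTTTTgctttttgggaTTTTTTTgttgtt
Zbtb21, chr16:97948685-97948714, minus strand: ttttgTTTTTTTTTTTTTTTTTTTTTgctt
Zbtb6, chr2:37428271-37428300, minus strand: tagcagTTTTTTTTTTTTTTaatttaacca
Zbtb7a, chr10:81150897-81150926, plus strand: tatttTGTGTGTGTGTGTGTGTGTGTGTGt

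The third group held none of these features near the site, and is shown because it includes the 3′ UTR position with the highest count of any member, in Zbtb34. The others are the strongest 3′ UTR sites of Zbtb18 and Zbtb6 outside the groups above.
Zbtb34, chr2:33407638-33407667, minus strand: gagttcatcttcctggtcagtggaaaagcc
Zbtb18, chr1:177449896-177449925, plus strand: tcattctctctctccctcctttttgcttcc
Zbtb6, chr2:37426036-37426065, minus strand: tttgtgagcactttgaaagttttgcttgtg

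The 37 genes together had a summed count of 1662 and 268 sites. With all members, introns held 1150 counts, or 69.2% (95% Wilson interval 66.9 to 71.4), and 3′ UTRs 421, or 25.3% (23.3 to 27.5). Coding sequence held 77 counts (4.63%, 3.72 to 5.75) and 5′ UTRs 14 (0.842%, 0.502 to 1.41). Over all protein-coding genes the shares were 76.9% in introns, 13.2% in 3′ UTRs, 9.13% in coding sequence and 0.809% in 5′ UTRs. Zbtb20 alone held 635 of the intron counts, and without it the members' shares were 40.0% in 3′ UTRs (36.9 to 43.1), 52.8% in introns (49.6 to 55.9) and 5.84% in coding sequence. No gene was left out of the background in turn. These shares are not set per length, and the members' annotated introns were shorter, with a median of 14500 nt against 24580 nt for all genes. Their 3′ UTRs were longer, as given below. Wilson intervals here cover counting error only, and neighbouring positions are not independent. Most single values were small: 606 of the 1109 positions had a count of 1, 476 a count of 2 and 27 a count of 3 or more. Positions with 3 or more made up 2.43% (1.68 to 3.52) of the members' positions and 4.45% of those of all protein-coding genes.

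A 3′ UTR site was present in 14 of the 37 genes, 37.8% (24.1 to 53.9), against 17.7% of all protein-coding genes. The 14 were Zbtb44, Zbtb6, Zbtb18, Zbtb1, Zbtb7a, Zbtb21, Zbtb20, Zbtb39, Zbtb25, Zbtb8os, Zbtb26, Zbtb41, Zbtb49 and Zbtb34. Without Zbtb8os the number was 13. Any listed 3′ UTR position was present in 25 genes (67.6%, background 45.9%). Annotated 3′ UTRs of the members were longer, with a median of 2817 nt against 1271 nt for all genes, so the counts were read by length. No site lay in the 5 members with a 3′ UTR of up to 1000 nt, where 7.65% of all genes had one. Between 1000 and 2000 nt it was 1 of 6 members (background 17.7%), and between 2000 and 4000 nt 7 of 16 (43.8%, 23.1 to 66.8, background 26.8%). Above 4000 nt it was 6 of 10 (60.0%, 31.3 to 83.2, background 37.2%). The background share lay inside the members' interval in each class of length.

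Pooled over length, site density in the family was close to that of all genes. Its 3′ UTRs held 0.708 sites per kb (0.582 to 0.860) in all, and those of all genes 0.711. The pooled crosslink count was 2.95 per kb of 3′ UTR in the family and 3.64 per kb in all genes. The longest 3′ UTRs of the family weigh on both pooled values. Zbtb20 had 31 counts and 4 sites in 23861 nt, and Zbtb37 had 5 counts and no site in 17484 nt. Pooled values without these genes were not computed. The median gene gave another order, with 1.43 counts per kb in the family and 0 in all genes, since most genes had no 3′ UTR count. Among genes with a 3′ UTR site the median density was 1.21 sites per kb for the 14 members and 2.02 for all 2222 such genes. Sites of the members also had lower single counts: 8 of 101 3′ UTR sites had a count of at least 3 (7.92%, 4.07 to 14.9), against 22.1% over all genes. Across the 37 genes the 3′ UTR count followed 3′ UTR length with a Spearman rho of 0.48, and across 12299 genes with 0.36. These are descriptions across genes of the same list, and genes are not independent replicates.

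**Figure D1:**
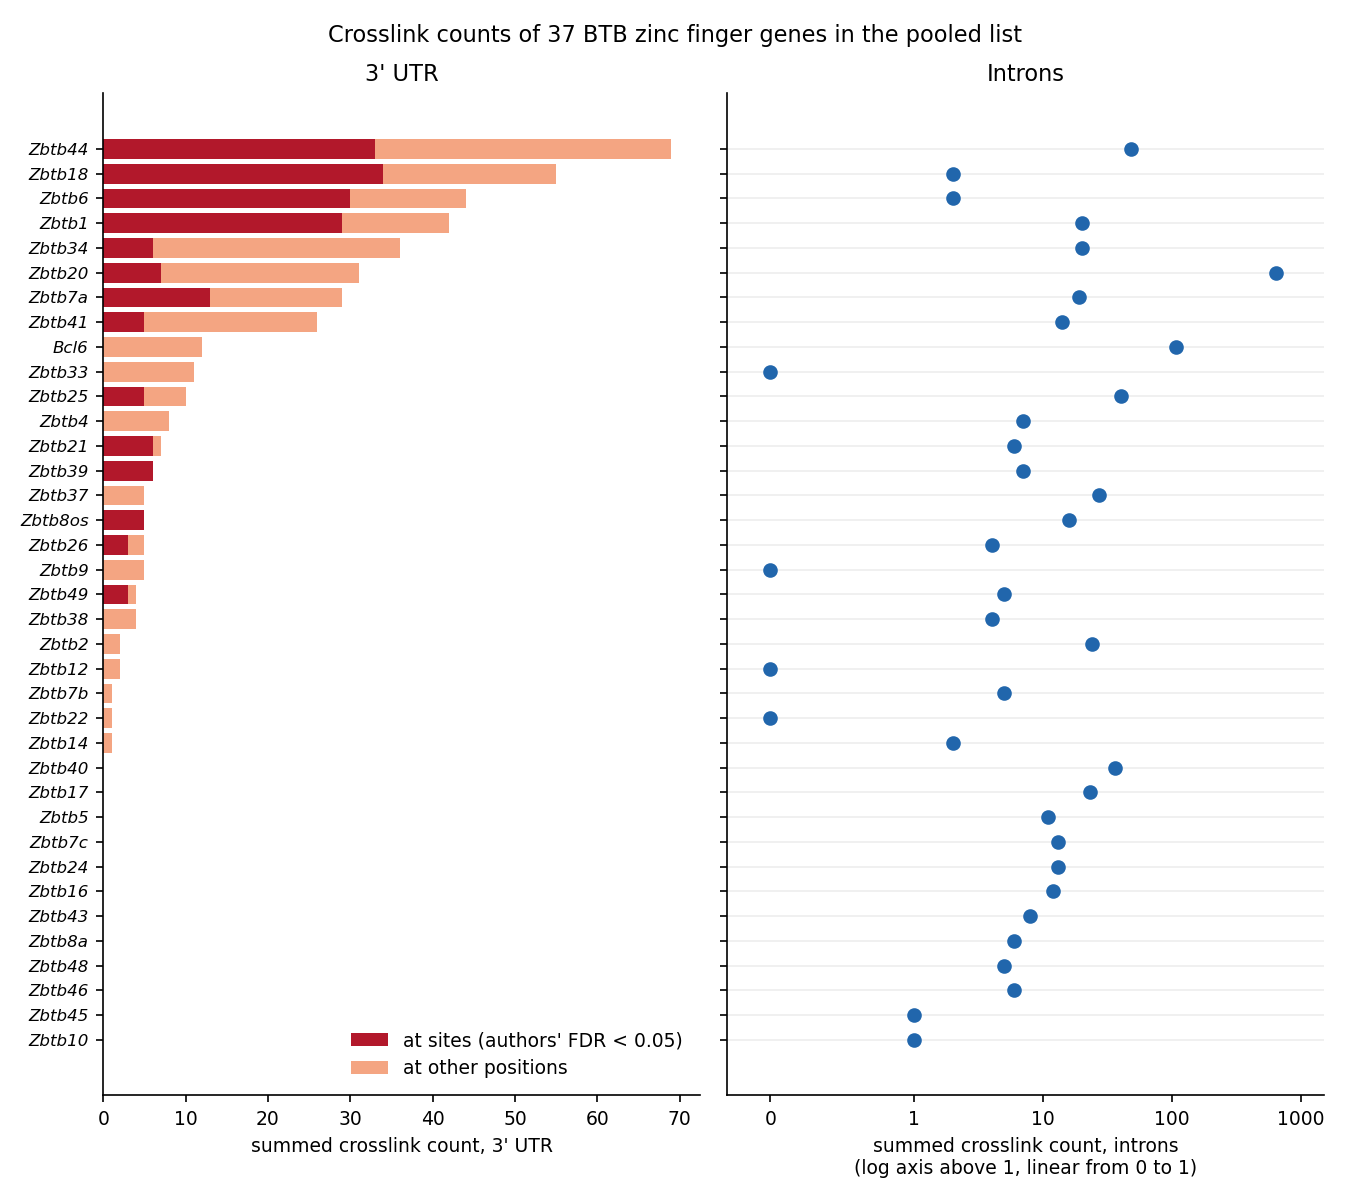
Bars at left give each member's summed crosslink count in the 3′ UTR, split into counts at sites and at other positions, and points at right give the summed count in introns on an axis that is logarithmic above 1. Zbtb44 leads the 3′ UTR counts with 69 and Zbtb20 the intron counts with 635, while 12 genes have no 3′ UTR count.

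**Figure D2:**
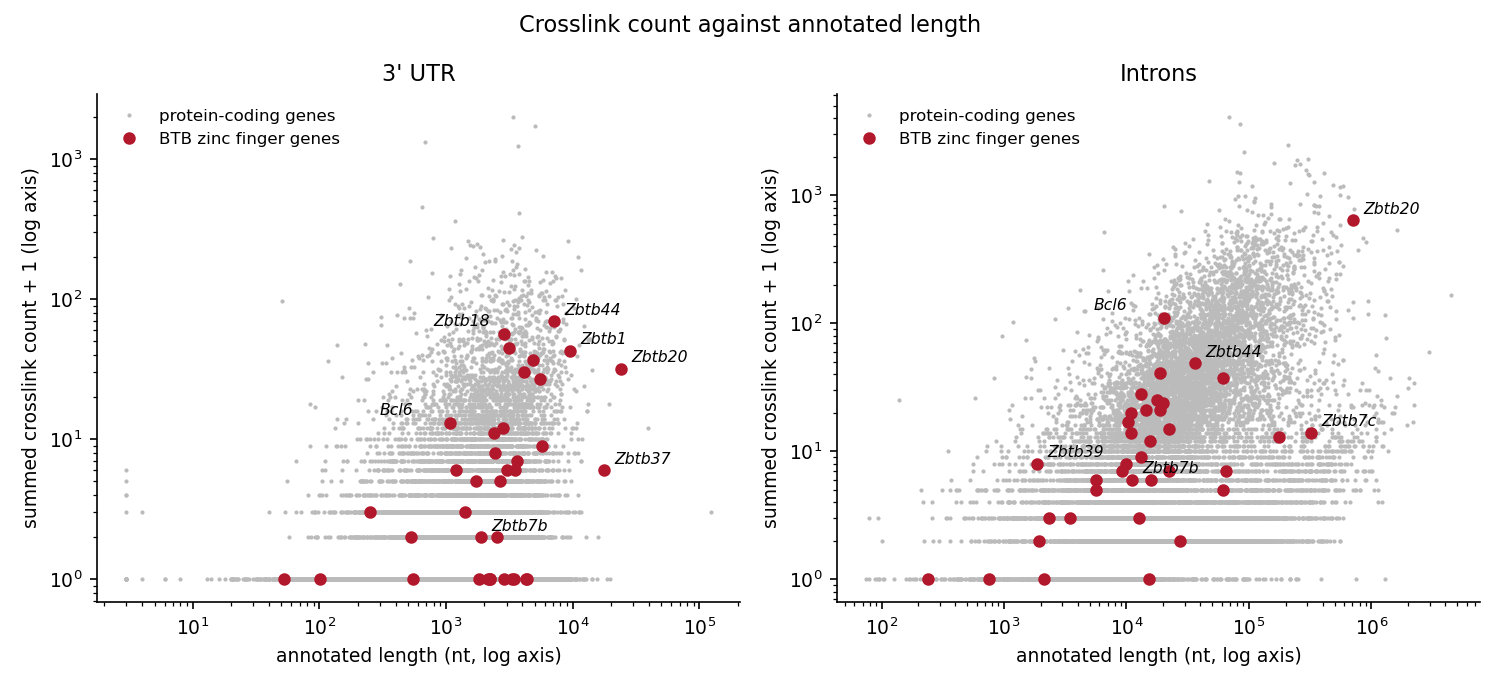
Summed crosslink count plus 1 against annotated length in nucleotides, both on log axes, for 3′ UTRs at left and introns at right; red points are the 37 members and grey points all protein-coding genes. Members spread over the range of counts that genes of their length show, with Zbtb20 furthest right of the members in both panels and Bcl6 high for its 20276 nt of intron.

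Among the members with known roles in T cells, 3′ UTR sites were most numerous in Zbtb1 and Zbtb7a. Zbtb1, a factor that lymphoid progenitors need to form T cells, had 42 counts and 15 sites in a 3′ UTR of 9570 nt. Of these, 13 sites with 25 counts lay within 52 nt, at chr12:76387835-76387886, the largest 3′ UTR cluster of the family when sites up to 30 nt apart are joined. Its base sequence is the T-rich run printed above, and 1 of the 13 sites had TATTTA within 20 nt. The other 2 sites of Zbtb1 lay 867 and 877 nt after the coding sequence, and the distal part of its long 3′ UTR had isolated positions without a site.

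Zbtb7a (LRF), which acts with ThPOK in CD4 T cells and represses fetal globin genes in red cell precursors, had 29 counts and 7 sites in 4087 nt. The 5 sites with 9 counts at chr10:81150906-81150921 lay on the TG repeat. The other 2 sites, 3308 and 3309 nt after the coding sequence, lay at the TATTTA printed above and had a count of 2 each. Of the 3 TATTTA copies in this 3′ UTR 1 had a site.

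Several other regulators of T cell fate carried little or no 3′ UTR signal. This was common in the list: 45.9% of all protein-coding genes had a listed 3′ UTR position, and the median 3′ UTR count over all of them was 0. Zbtb7b had 1 count in a 3′ UTR of 1885 nt and 8 counts in all, with 2 sites, both in introns. Zbtb16 had no 3′ UTR count in 2848 nt and 12 intron counts in 176643 nt, with no site. Zbtb17 (Miz-1), a partner of Myc that early lymphoid cells need, had no count in its 3′ UTR of 102 nt, 6 coding counts and 23 intron counts, with 2 intron sites. Zbtb24, whose loss in humans causes an immunodeficiency with altered DNA methylation, had no 3′ UTR count in 1822 nt and 13 intron counts with 4 sites. Zbtb32 and Bcl6b were among the genes not listed. The list gives no RNA level, so few crosslinks and little mRNA cannot be told apart here, nor can binding in a few cells and weak binding in many.

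Bcl6 had many counts and no 3′ UTR site. Its 3′ UTR of 1076 nt held 12 counts at 8 positions of 1 or 2 counts each, which is 11.2 counts per kb, and no TATTTA copy. Its introns held 108 counts at 66 positions, or 5.33 counts per kb, the highest of the 37 genes and rank 405 of all genes with introns. Of its 15 intron sites, 10 lay within 2000 nt of the annotated start of the gene. The 4 nearest, at chr16:23988390-23988402, carried 6 counts and lay 450 to 462 nt from that start, each with TATTTA within 20 nt. A single position 16901 nt from the start, chr16:23971951, had a count of 9, the highest at any position of any member. Its sequence held no TATTTA, no T run and no TG repeat. The capitals below mark TATTTA in the first sequence, and the other is the position with the count of 9.
Bcl6 intron near the start, chr16:23988370-23988399, minus strand: atgtatcTATTTAttgattctagctgtcag
Bcl6 intron, highest count, chr16:23971931-23971960, minus strand: cttctttctttctctcccttcttttctttc

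Most 3′ UTR sites came from a few members. Zbtb44, Zbtb6, Zbtb18 and Zbtb1 accounted for 67 of the 101 sites (66.3%) and 210 of the 421 counts (49.9%) in the members' 3′ UTRs. Zbtb44 had 69 counts at 46 positions in 7133 nt, which is 9.67 counts per kb, and 19 sites in 7 clusters. Its clusters were spread from 273 to 6888 nt after the coding sequence, and 2 of them lay near TATTTA. This 3′ UTR holds 10 TATTTA copies, and 3 of them had a site within 20 nt.

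Zbtb18 (RP58), a repressor known from the developing cerebral cortex, had the densest 3′ UTR of the family. Its 55 counts in 2869 nt gave 19.2 counts and 5.58 sites per kb. All 16 sites lay between 1643 and 2054 nt after the coding sequence, in 3 clusters. The cluster of 3 sites with 8 counts at chr1:177449538-177449542 lay on the single TATTTA copy of this 3′ UTR. The other clusters, of 7 sites with 15 counts and 6 sites with 11 counts, had no TATTTA, T run or TG repeat within 20 nt of any site.

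Zbtb6 had 44 counts in 3146 nt, or 14.0 counts and 5.40 sites per kb, and 17 sites in 4 clusters. The cluster of 7 sites with 11 counts at chr2:37425998-37426021 had TATTTA within 20 nt of all 7. It lies 2625 to 2648 nt after the coding sequence, and 2 of the 3 TATTTA copies of this 3′ UTR are beside it. A cluster of 4 sites with 6 counts, on the T run printed above, lay 349 to 357 nt after the coding sequence. Introns of these genes differed: Zbtb18 and Zbtb6 had 2 intron counts each, whereas Zbtb44 had 48.

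**Figure D3:**
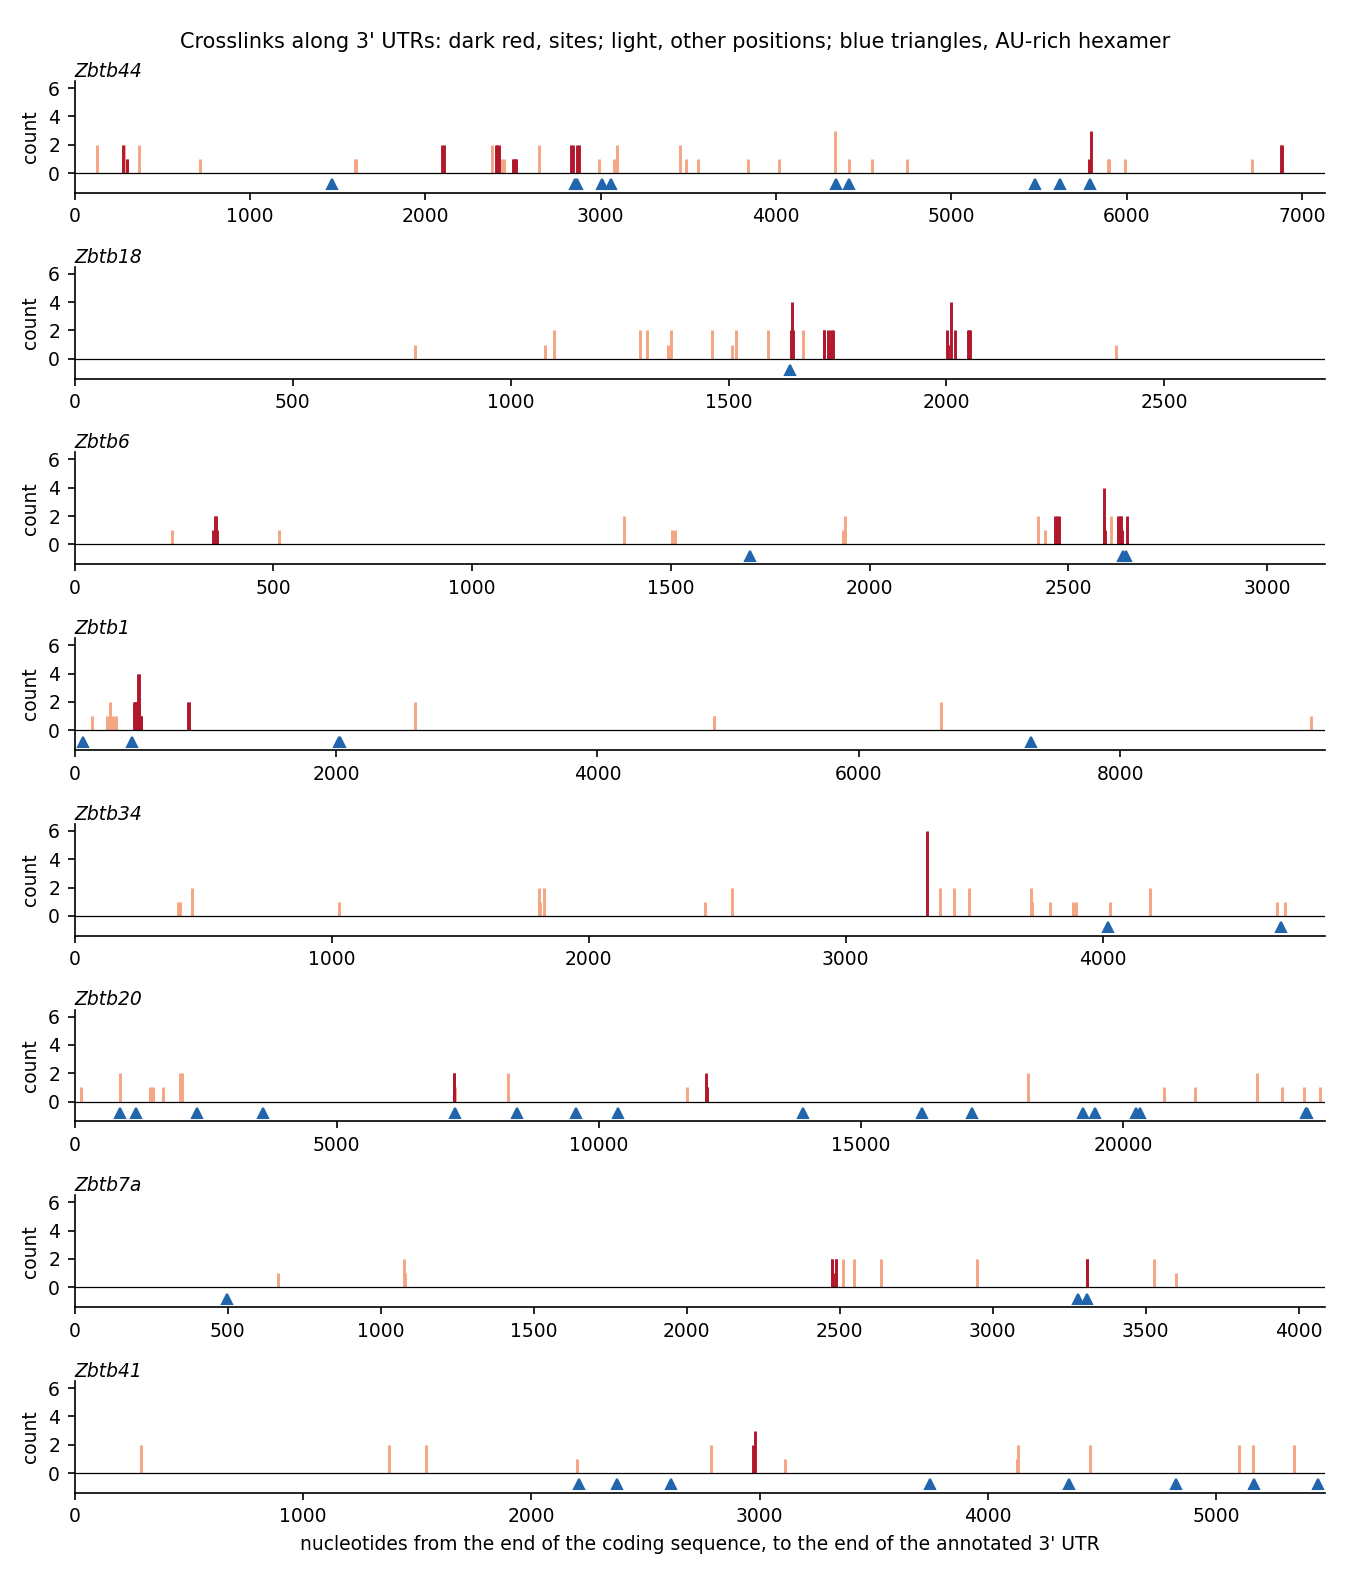
Crosslink counts along the annotated 3′ UTRs of the 8 members with the highest 3′ UTR counts, against nucleotides from the end of the coding sequence; dark bars are sites, light bars other positions and blue triangles copies of the AU-rich hexamer TATTTA. In Zbtb18 the 16 sites stand together between 1643 and 2054 nt, whereas the 19 sites of Zbtb44 are spread from 273 to 6888 nt.

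Some 3′ UTRs with counts had few sites or none. Zbtb34 had 36 counts at 22 positions in 4866 nt and 1 site, the position of count 6 at chr2:33407658, 3316 nt after the coding sequence. Zbtb41 had 26 counts in 5478 nt with 2 sites, and none of its 8 TATTTA copies had a site. Zbtb33 (Kaiso), which binds methylated DNA, had 11 counts and no site in 2817 nt, and the related Zbtb4 had 8 counts and no site in 5764 nt.

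Members with smaller numbers included Zbtb25, which lies beside Zbtb1 on the opposite strand, with 10 counts and 3 sites. Zbtb21 had 7 counts and 6 sites of count 1 on the T run, Zbtb39 6 counts and 4 sites, and Zbtb26 5 counts and 2 sites. Zbtb49 had 4 counts and 2 sites. Zbtb8os had 5 counts and 3 sites, all 3 with a T run and 1 with TATTTA within 20 nt. These Zbtb8os sites stay in the site density, sequence shares and clusters given here. Another gene is annotated on the same strand at 8 of the 101 3′ UTR sites. These are the 6 of Zbtb21, which lie inside C2cd2, and the 2 of Zbtb26, which lie inside the annotated span of Zbtb6. Counts there cannot be assigned to a single gene, and without them 12 members, Zbtb8os among them, had a 3′ UTR site. Zbtb37 had 5 counts in 3′ UTR labels and no such site. A further 12 of its positions, 3 of them sites, were labelled intron by the authors and lie in its GENCODE 3′ UTR of 17484 nt.

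No 3′ UTR count was listed for 12 members: Zbtb10, Zbtb16, Zbtb24, Zbtb17, Zbtb48, Zbtb46, Zbtb45, Zbtb43, Zbtb40, Zbtb5, Zbtb8a and Zbtb7c. The other 25 (67.6%) had a listed 3′ UTR position, beside 45.9% of all protein-coding genes. A site of any type was listed for 24 members (64.9%, 48.8 to 78.2, background 63.6%) and not for 13: Zbtb10, Zbtb12, Zbtb14, Zbtb16, Zbtb22, Zbtb33, Zbtb4, Zbtb43, Zbtb45, Zbtb48, Zbtb5, Zbtb8a and Zbtb9. Of these, Zbtb10, Zbtb45 and Zbtb12 had 1, 1 and 2 counts in all. Zbtb46, a marker of classical dendritic cells, had 6 counts, all in introns, with 1 site. Zbtb48, which binds telomeric repeats, had 6 counts, of which 5 were in introns. Zbtb38, a relative of Kaiso, had 9 counts, 4 of them in its 3′ UTR, and 1 site, in an intron.

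Introns held most of the family's counts, and 1 gene held most of those. Zbtb20, a repressor of alpha-fetoprotein in liver that also acts in plasma cells, had 635 intron counts and 73 intron sites in 707111 nt of intron. Without it the members' intron count was 515. Per length Zbtb20 had 0.898 counts per kb of intron, against 0.478 for the other 36 members pooled and 0.601 for all genes pooled. Long introns with few counts weigh on that 0.478: Zbtb7c had 13 counts in 323655 nt and Zbtb16 12 in 176643 nt. The median over all 37 members was 0.654 counts per kb, against 0.499 over all genes with introns. The 3′ UTR of Zbtb20, the longest of the family at 23861 nt, had 31 counts and 4 sites, or 1.30 counts per kb. An intron position was listed for 33 of 37 members (89.2%, background 91.8%). An intron site was present in 21 of 37 members (56.8%, 40.9 to 71.3), beside 55.6% of all genes. Of 786 intron positions 155 were sites (19.7%, 17.1 to 22.7), beside 28.5% for all genes. That share rests on Zbtb20, since without it 82 of 327 positions were sites (25.1%, 20.7 to 30.1), an interval that holds the background. For 3′ UTR positions it was 101 of 265 (38.1%, 32.5 to 44.1) beside 37.8%.

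After Zbtb20 and Bcl6 the most intron counts were in Zbtb44 with 48, Zbtb25 with 40 and Zbtb40 with 36. Per kb, Zbtb39 followed Bcl6 with 3.78, from 7 counts in 1852 nt. The lowest values above 0 were 0.0366 counts per kb in Zbtb10, 0.0402 in Zbtb7c, 0.0649 in Zbtb38 and 0.0679 in Zbtb16. Intron count and intron length had a Spearman rho of 0.55 across the members and 0.39 across 12144 genes. For 3′ UTR count against intron count it was 0.21 across the members and 0.45 across 12541 genes.

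The 3 intron clusters of Zbtb20 with the highest summed counts lay on a TG repeat, an AU-rich stretch and a T run, kinds of sequence also seen in the 3′ UTRs, and are shown for that reason. A weaker cluster of 5 counts is added because its TATTTA lies outside repeats, with the AU-rich intron cluster of Zbtb34. Capitals mark the TG repeat or the run of at least 6 T where the name says so, and TATTTA in the others.
Zbtb20 intron, TG repeat, chr16:42988456-42988485, plus strand: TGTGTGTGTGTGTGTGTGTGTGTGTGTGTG
Zbtb20 intron, AU-rich, chr16:43133454-43133483, plus strand: ccatttatttTATTTATTTATTTATTTAtt
Zbtb20 intron, T run, chr16:43318859-43318888, plus strand: cttcctttttcTTTTTTTTTTTTTaggttg
Zbtb20 intron, outside repeats, chr16:43091368-43091397, plus strand: agtataaaggattagcagtTATTTAtctta
Zbtb34 intron, AU-rich, chr2:33416718-33416747, minus strand: gcccaaagattTATTTATTTATTTATTTAt

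The TG cluster of Zbtb20 held 8 sites with 16 counts, the AU-rich cluster 7 sites with 13 and the T-run cluster 7 sites with 10. In Zbtb20 introns 21 of 73 sites lay within 20 nt of TATTTA. In Zbtb34 it was all 3 intron sites, which carried 8 counts, although none of its 3′ UTR sites was near the hexamer.

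Coding labels were few and in part differed from the annotation. A coding position was listed for 21 members (56.8%, background 54.2%). Coding sites were listed for 2 members (5.41%, 1.5 to 17.7), an interval that holds the 13.1% of all genes. For 5′ UTR sites it was 0 of 37 (an upper Wilson bound of 9.41%), beside 1.13%. The 10 coding sites of Zbtb20, with 16 counts, form a single cluster at chr16:43363706-43363737 that lies in an intron of GENCODE, on a T run. The 2 coding sites of Zbtb2, with 4 counts at chr10:4374582-4374591, lie in its GENCODE coding sequence. Zbtb40 had 8 coding counts and no coding site.

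Sequence within 20 nt of the sites was compared with that of all protein-coding genes, searching the RNA strand only. TATTTA lay near 25 of the 101 3′ UTR sites (24.8%, 17.4 to 34.0) and near 28.9% of the 3′ UTR sites of all genes. The pentamer ATTTA, which TATTTA contains, lay near 35.6% (27.0 to 45.4) and 36.4%. The 9-base TTATTTATT, which also contains TATTTA, lay near 4.95% (2.13 to 11.1) and 7.87%. The 7-base TATTTAT lay near 13.9% (8.44 to 21.9) and 21.4%. A run of 6 T lay near 38 sites (37.6%, 28.8 to 47.4), 31 of them without TATTTA, and near 32.0% of those of all genes. TGTGTG lay near 5 sites (4.95%, 2.13 to 11.1), all in Zbtb7a, beside 7.54%, and 40 sites (39.6%, 30.6 to 49.4) had neither the hexamer nor a T run nor TGTGTG, beside 38.5%. The background lay inside the members' interval for each of these patterns.

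Places near the hexamer were far fewer than sites near it. When the bases of each member's 3′ UTR were weighted by its number of sites, 2.69% of places had TATTTA within 20 nt, so the sites were 9.21 times as often near it. For all genes the same ratio was 8.67, from 28.9% of sites and 3.34% of places. The ratio has no replicate error, and the family's value was not tested against the other. Seen from the hexamer, 14 of 112 TATTTA copies in the members' 3′ UTRs had a site within 20 nt (12.5%, 7.59 to 19.9), beside 7.49% of 16253 copies in all annotated 3′ UTRs. Among genes with a 3′ UTR site it was 14 of 66 (21.2%, 13.1 to 32.5) for the members and 24.0% of 5072 for all.

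In introns the hexamer lay near 35 of 155 sites (22.6%, 16.7 to 29.8), beside 22.1% for all genes, and 2.52% of places weighted in the same way. A run of 6 T lay near 35.5% (28.4 to 43.3) beside 34.6%, and TGTGTG near 14.8% (10.1 to 21.3) beside 12.6%. The hexamer started downstream of the crosslinked base at 12 of the 25 3′ UTR sites near it, enclosed the base at 8 and ended upstream at 5. In introns it was 23, 11 and 1 of 35, or 65.7% downstream beside 42.0% for all genes; sites of a cluster share their copy of the hexamer, so these are not independent.

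Other features of the sites were close to or apart from those of all genes. The crosslinked base was T at 70.3% (60.8 to 78.3) of the members' 3′ UTR sites and 65.8% of those of all genes. Repeats and low-complexity sequence, as soft-masked in the assembly, held 75.2% (66.0 to 82.6) of the members' 3′ UTR sites, beside 59.5% of all. In introns the masked share was 76.1% (68.8 to 82.2) beside 74.7%. Joined into clusters, the 101 3′ UTR sites formed 28, of which 10 had TATTTA near at least 1 site, 5 a T run but no TATTTA, 1 TGTGTG alone and 12 none of these. The 155 intron sites formed 59 clusters, of which 12, 13, 7 and 27 fell in the same classes.

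**Figure D4:**
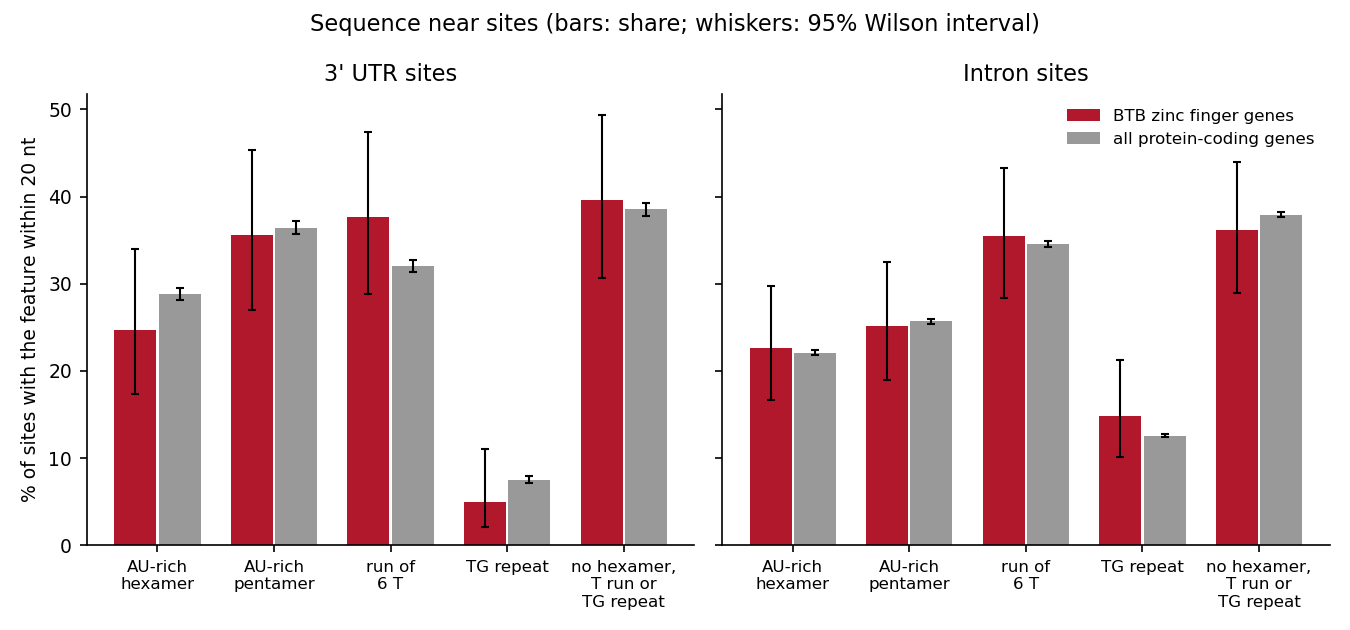
Percent of sites with each feature within 20 nt, for 3′ UTR sites at left and intron sites at right; red bars are the 37 members, grey bars all protein-coding genes, and whiskers 95% Wilson intervals. Every grey bar lies within the whiskers of the red bar beside it, such as 24.8% and 28.9% for the hexamer in 3′ UTRs.

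Genes that work with the family were counted in the same list. Of 24 corepressors and cofactors that BTB zinc finger proteins recruit, all were listed and 8 had a 3′ UTR site (33.3%, background 17.7%). The members with most 3′ UTR sites were Tbl1xr1, a subunit of the NCoR complex, with 24 sites and 114 counts, and Sin3b, a histone deacetylase scaffold, with 13 and 57. Chd4 of the NuRD complex had 6 sites and 22 counts, and the ubiquitin ligase scaffold Cul3 and the corepressor Ncor1 had 5 each, with 22 and 15 counts. Hdac7, a deacetylase of thymocytes, had no 3′ UTR count and 1297 intron counts. A list of 10 BTB zinc finger symbols with other names held 4 older symbols of members, Zfp161 (Zbtb14), Zfp238 (Zbtb18), Zfp295 (Zbtb21) and Zfp509 (Zbtb49), whose values are given above. Of the other 6 genes 5 were listed, and none had a 3′ UTR site: Zfp131 with 8 3′ UTR counts, Hic2 and Gzf1 with 1 each, and Patz1 and Zfp651 with 0. Patz1 (MAZR), which restrains Zbtb7b in CD8 cells, had 41 intron and 29 coding counts. All 20 genes of a list on the CD4, CD8 and innate-like T cell choice were listed, counting Patz1 there under its older symbol Mazr. Of these, 12 had a 3′ UTR site (60.0%, background 17.7%), among them Satb1 with 1241 3′ UTR counts, Gata3 with 150, Tcf7 with 134 and Runx1 with 116. The list's genes without such a site had from 0 (Patz1) to 18 (Id2) 3′ UTR counts. The median of the list, with Patz1 left out, was 32. All 25 members with any 3′ UTR count had between 1 and 69, and these list values are raw counts that were not set per length. The lists' shares of genes with a 3′ UTR site were not read by length either. Over all genes that share was 7.65% for 3′ UTRs of up to 1000 nt and 37.2% above 4000 nt.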

How the data were processed

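The deposited list gives, per position, a signed count whose sign is the strand. It was taken as a number of crosslink events, although the list does not say which libraries entered it. A second deposited value sums counts within 15 nt. The deposited p-value was not used. The authors' FDR, also a score in the file, exceeds 1 at 3825 positions and was used only as the threshold 0.05. Per the submitters' processing notes, Bowtie and the build GRCm38 were used; versions and other steps were not given in the sources used here.

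Positions count from 0, since adding 1 made 2015 labels match at coding exon edges, against 1009 as given. Coordinates above count from 1. Absolute counts were summed per gene and authors' segment label. Lengths are unions of GENCODE vM21 annotation, with the stop codon in the 3′ UTR, and sequence came from the RefSeq GRCm38.p6 genome. Older symbols in the gene lists were updated through RefSeq synonyms. The library labelled DCKO and those labelled WT could not be separated, so no test was run. Python 3.11.15, pandas 2.3.3 and pysam 0.24.0 were used, and the motif search was tested on simulated data.

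Named genes are members with a 3′ UTR site, the 8 with the highest total, those with known lymphocyte roles, those without a site and the 5 partners with most 3′ UTR sites. Others were named after their values were seen, including Zbtb2, Zbtb37, Zbtb38, Zbtb40, Zbtb46, Zbtb7c and list genes. Members and lists were chosen with earlier results of these data known, and clusters were defined after seeing the data. Alternatives were stricter sites, other windows and motifs, GENCODE segments and omitted genes.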

Additional observations from a re-analysis of the deposited data

How the results depend on the processing

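No paired analysis was possible because the list has no library column, and leaving out a library was not possible for the same reason. Of 57 alternatives for 13 results, 31 stayed and 26 moved, where a count or count per kb moved if it changed by over 1.5 times and a share or site density if it left the counting interval. With counts at sites only, the summed counts were 185 in 3′ UTRs, 293 in introns, 20 in coding sequence and 0 in 5′ UTRs. Counting positions gave 265 in 3′ UTRs, 50 in coding sequence and 8 in 5′ UTRs. By GENCODE segment the coding count was 44, and without Zbtb20 the intron count was 515, the shares of counts were 40.0% in 3′ UTRs, 52.8% in introns and 5.84% in coding sequence, and 25.1% of intron positions were sites. Members with a 3′ UTR site numbered 25 with all listed positions and 6 with positions of a count of at least 3, whatever their FDR. The density was 0.546 per kb at an FDR below 0.01 and 1.86 with all positions. The share of 3′ UTR sites near the hexamer was 12.9% within 10 nt, 37.6% within 50 nt and 14.7% for all positions; with ATTTA it was 35.6%, with TATTTAT 13.9% and with TTTTTT 37.6%. In introns it was 11.0% within 10 nt, 41.3% within 50 nt and 10.1% for all positions. Some of these alternatives widened or narrowed a definition, and others changed the motif, the segment labels or the genes included. The alternatives without other genes of the same strand and, for counts, shares of counts and intron positions, without Zbtb20 were chosen after seeing the data. Low counts limit what can be read for the smaller members: 3 of 37 had fewer than 3 counts in all. The lower quartile of the total count was 8 for the members and 4 for all protein-coding genes.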
